A study of Mus musculus with 12 samples.

Results

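Reactivated nuclei were compared with Basal nuclei of the mouse hippocampus by sequencing of nuclear RNA, with 3 libraries titled Reactivated and 3 titled Basal out of 12 libraries in all. The members were chosen by their titles. The other 6 libraries, 3 titled Early and 3 titled Late, entered the same fit and serve below as 2 further groups against which the Reactivated level was tested. All 12 libraries come from the same cross of ArcCreERT2 mice, which carry a tamoxifen-dependent Cre recombinase under control of the Arc gene, with R26R-STOP-floxed-eYFP reporter mice, in which Cre turns on a yellow fluorescent protein for good. The genotype given for all of them is +/+. All mice were held in the dark for 24 h, received 1 dose of 4-hydroxytamoxifen 1 h before contextual fear conditioning and were then conditioned with a foot shock. Brains were collected 1.5 to 2 h later, or the mice went back into the dark for 48 h and were collected 5 days after conditioning, some of them after the tone and context had been presented once more. Hippocampi of 10 to 12 mice were pooled, nuclei were fixed with 1% paraformaldehyde, stained with antibodies against NeuN, Arc and GFP and sorted to 10000 nuclei per condition. The design text calls the 3 libraries of a group biological replicates. It is not stated which sorting gate or collection time belongs to which title, and the treatment label is the same in all 12 libraries and names no recall. That label gives a foot shock and tissue collection on the same day. The groups therefore rest on the titles alone, and no age or sex of the mice was stated.

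Arc is an immediate early gene, one of a set of genes that neurons transcribe within minutes of strong activity. Many of these genes encode transcription factors, among them Fos, Egr1, Npas4 and Nr4a1, which in turn act on slower target genes such as Bdnf, and Arc itself encodes a protein that acts at synapses. A neuron that was active during learning, and is tagged through Arc, can be active again when the animal meets the cue a second time, and such cells are studied as parts of a memory trace. Nuclear RNA holds unspliced transcripts and nuclear noncoding RNA beside messages on their way out of the nucleus, so it follows transcription more closely than the RNA of whole cells.

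The total count per library ran from 4838166 to 10255713 in the Basal and from 7356465 to 10327059 in the Reactivated libraries. Of 15668 genes tested, 39.4% differed between Reactivated and Basal at an adjusted p below 0.05 (edgeR quasi-likelihood test, Benjamini-Hochberg adjustment, used for all adjusted p-values below). The higher genes numbered 3223, or 20.6% of those tested, and the lower ones 2946, or 18.8%. Under scaling to equal library totals, 1237 genes were higher and 5833 lower, and the median log2 change of all genes was −0.463 in place of 0.0196. The ribosomal precursor Rn45s held 22.4% ± 4.69 (SD, n = 3) of all counts in Reactivated and 7.36% ± 4.19 in Basal libraries, with exact permutation p = 0.1, the smallest that 3 against 3 allows. The libraries of both groups did not overlap in that share. Reactivated replicate 2 lay over 3-fold above both other Reactivated libraries in 60 of 2981 risen genes with a mean normalised count of 50 or more. Reactivated replicate 1 did so in 6 and replicate 3 in 0 of them, and genes that replicate 2 carries are marked below. Reads of multigene families (tubulins, kallikreins, protocadherins, histones) and of overlapping genes may be split in ways the sources used here do not give, so single members are uncertain.

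**Figure D1:**
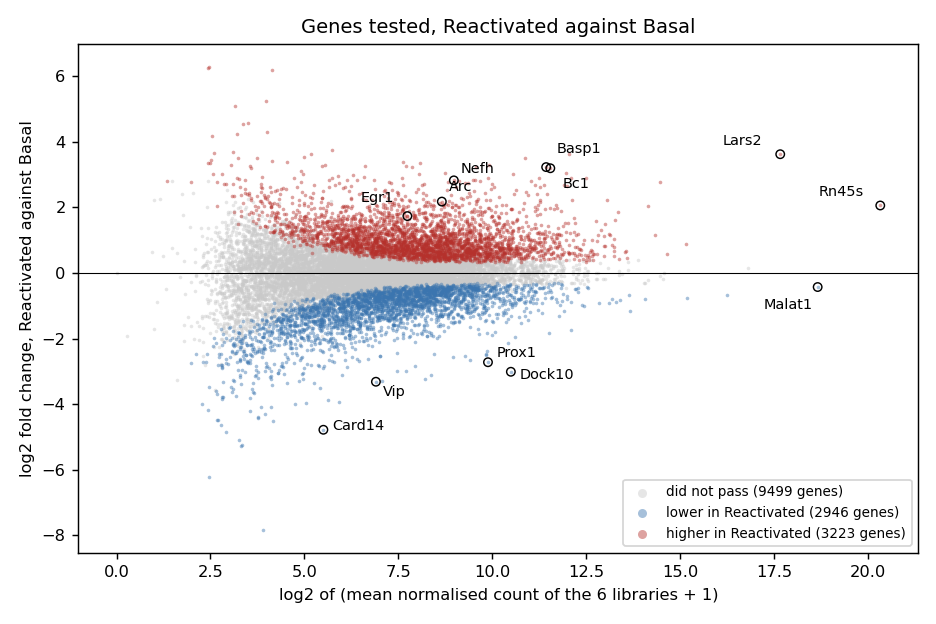
Each point is 1 of the 15668 genes tested, with its mean normalised count over the 6 libraries on the horizontal axis (log2 of the mean + 1) and its log2 fold change on the vertical axis. The 3223 higher genes are red, the 2946 lower genes blue and the genes that did not pass grey. Basp1 and Bc1 lie among the highest of the well-counted genes, and Dock10 and Prox1 among the lowest.

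Markers of dentate gyrus granule cells were low in the Reactivated nuclei. Of 17 granule cell markers tested, 15 fell, none rose, and the median log2 change was −2.39, beside 0.0196 over all genes. Their summed normalised count averaged 3981.3 in Reactivated, 4283.3 in Early, 6357.1 in Late and 15849 in Basal libraries, so Early and Late were low too. Prox1, the transcription factor that marks and maintains granule cell identity, was counted at 457.1, 180.4 and 119.0 in the Reactivated libraries and at 1543, 1861 and 1505 in the Basal libraries (normalised counts, here and below). No Reactivated library reached the lowest Basal one, and Prox1 fell by 2.72 ± 0.34 on the log2 scale (SE, adjusted p = 8.06e-05). Groups did not overlap in 45.8% of all genes tested. Dock10, which encodes a guanine nucleotide exchange factor, stood at 520.4, 223.5 and 217.6 against 2687, 3246 and 1749 and fell 8.06-fold (adjusted p = 2.67e-05). The cation channel gene Trpc6 (5.25-fold), the synaptic organiser C1ql2 (7.15-fold) and the desmosome gene Dsp (6.33-fold) fell as well, with adjusted p-values of 7.71e-05, 0.000378 and 0.000165. In all 5 of these genes Reactivated replicate 1 was the highest of its group, and without it the fall of Prox1 was 10.9-fold, that of Dsp 11.4-fold and that of C1ql2 11.8-fold. Lct, a lactase gene, stood at 78.47, 22.88 and 71.05 against 581.6, 613.9 and 412.6 (log2 change −3.25, adjusted p = 1.88e-05). The calcium buffer gene Calb1 fell the least of the markers named, by 0.83 on the log2 scale (adjusted p = 0.00487). In these bulk samples, fewer nuclei of a cell type and less of its RNA per nucleus cannot be told apart.

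Markers of CA1 pyramidal neurons went the other way. Of 11 tested, 9 rose, none fell, and the median log2 change was 1.74. Their summed normalised count averaged 4501.7 in Reactivated, 4182.1 in Late, 2880.2 in Early and 1277.7 in Basal libraries, so Late and Early were high too. The gene for the secreted matrix protein Nov (CCN3) was counted at 746.2, 865.8 and 764.6 in Reactivated and at 119.2, 83.05 and 139.9 in Basal libraries, a log2 change of 2.79 ± 0.187 (SE, adjusted p = 2.99e-06). Nov was also above its Late libraries, which held 357.9, 342.1 and 338.0 (log2 1.20, adjusted p = 0.000184). Wfs1, an endoplasmic reticulum protein widely used to outline CA1, stood at 652.6, 409.2 and 512.4 against 143.8, 162.7 and 141.4 and rose 3.51-fold (adjusted p = 2.98e-05). The receptor gene Gpr161 rose 6.44-fold, the transcription factor gene Pou3f1 6.69-fold and the receptor gene Fibcd1 4.11-fold, with adjusted p-values of 3.18e-06, 3.64e-05 and 0.000102. Spink8, a protease inhibitor gene of CA1, was the exception at 1.377, 14.08 and 6.216 against 16.84, 31.43 and 17.94, which did not pass (adjusted p = 0.0597) but passed as lower with DESeq2 (adjusted p = 0.0343), without Reactivated replicate 2 (0.0168), with upper quartile scaling (0.0462) and under scaling to the same total (0.0202).

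Of 13 CA3 and CA2 markers, 8 rose and none fell, with a median of 0.718, and 5 rose under scaling to the same total. Pvrl3 (nectin-3), a cell adhesion gene of CA3, was counted at 335.9, 175.1 and 173.2 against 45.34, 52.75 and 61.71 (4.18-fold, adjusted p = 7.95e-05). Rgs14, a regulator of G protein signalling enriched in CA2, stood at 245.1, 411.8 and 388.1 against 94.57, 121.2 and 157.9 (2.78-fold, adjusted p = 0.00076). The heparan sulfate enzyme gene Hs3st4 rose 3.76-fold (adjusted p = 0.00011), and the calcium-binding protein gene Necab2 2.86-fold (adjusted p = 0.000249). Of 13 markers of the subiculum and cortical layers, 10 rose, with a median of 1.19, and 1, Tle4, fell (1.46-fold, adjusted p = 0.029, a call lost without each of 4 single libraries). Scaling to the same total left 5 of the 10. Fn1, the fibronectin gene, rose from 215.0, 71.83 and 241.1 to 525.9, 1359 and 1898 (7.14-fold, adjusted p = 0.000421). Rorb, a nuclear receptor gene of cortical layer 4, stood at 2697, 7369 and 1638 in Reactivated, with replicate 2 far above the others, and rose 6.47-fold with that library and 3.59-fold without it (adjusted p = 0.000949 and 0.00326).

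Interneuron markers were split. Of 23 tested, 4 rose and 10 fell, with a median of −0.439, and 6 fell without Basal replicate 1 or without Basal replicate 3. Under scaling to the same total 1 rose. Vip, the neuropeptide of a class of disinhibitory interneurons, was counted at 33.04, 19.36 and 14.21 in Reactivated and at 191.7, 281.7 and 171.5 in Basal libraries, a fall of 9.95-fold (adjusted p = 3.92e-05). The neuregulin receptor gene Erbb4 (2.73-fold) and the RNA editing gene Adarb2 (2.39-fold) fell too, with adjusted p-values of 0.000195 and 3.22e-05. The enzymes that make GABA, Gad1 and Gad2, fell by 1.55-fold and 1.6-fold (adjusted p = 0.0191 and 0.0138), a call that Gad1 lost without Basal replicate 3 and Gad2 without Basal replicate 1. Pvalb, the calcium buffer of fast-spiking interneurons, rose from 14.25, 7.856 and 12.2 to 52.31, 62.47 and 71.05 (5.4-fold, adjusted p = 0.00024) and was above Late as well (log2 2.09, adjusted p = 0.000642). The cannabinoid receptor gene Cnr1 rose 2.07-fold (adjusted p = 0.000558), and not under scaling to the same total (0.0599). Of 11 genes of adult neurogenesis and immature neurons, 4 fell (2 without Basal replicate 2) and none rose, among them the cell cycle gene Mki67 (46.81, 14.96 and 38.19 against 130.8, 177.3 and 108.4, adjusted p = 0.000431), although the median of that list was 0.478 and turned to −0.359 without Reactivated replicate 1 and to −0.0145 under scaling to the same total.

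Pan-neuronal genes rose or did not pass. Of 13 tested, 8 rose, with a median of 1.02, led by the neurofilament genes. Nefh, the heavy neurofilament chain of large axons, was counted at 1016, 859.7 and 770.8 against 124.4, 85.3 and 160.0 (log2 2.82 ± 0.242, adjusted p = 7.77e-06), and Nefl, the light chain, at 2504, 2744 and 2414 against 424.9, 379.3 and 633.6 (5.31-fold, adjusted p = 3.71e-05). Rbfox3, which encodes the NeuN antigen used in the sort, did not differ beyond its spread, at 1808, 1923 and 1829 against 1680, 2006 and 1652 (log2 0.06 ± 0.134, adjusted p = 0.754), and it was lower under scaling to the same total (−0.43, adjusted p = 0.0237). The summed RNA of 14 astrocyte markers ran from 5493.4 to 12499 in Reactivated and from 5676.8 to 9249.2 in Basal libraries, so the ranges overlapped. Of these 14, 4 rose (2 without Reactivated replicate 1, Basal replicate 2 or Basal replicate 3) and 1, the bicarbonate transporter gene Slc4a4, fell (4.41-fold, adjusted p = 5.76e-05). The defining astrocyte gene Gfap rose from 123.1, 69.58 and 88.26 to 359.3, 174.2 and 229.1 (adjusted p = 0.00392). The sum of 13 oligodendrocyte markers was 8161.1 in Reactivated replicate 1 and 3751.1 and 3180.2 in the other 2, against 2594.8 to 3230.8 in Basal. Of the 11 tested, 4 rose and 2 fell, and 2 rose without Reactivated replicate 1 or Basal replicate 2. Of 11 precursor markers, 4 rose (2 without Reactivated replicate 1 or Basal replicate 3) and 1 fell, and Sox10, a transcription factor of the lineage, rose from 9.068, 17.96 and 12.2 to 169.3, 64.23 and 78.15 (7.78-fold, adjusted p = 0.000296). Of 12 microglia markers tested, 3 rose and 1 fell, and the sums of all 17 listed were 1195.3 to 2507 against 1071.3 to 1176.2. Under scaling to the same total, 2 astrocyte, 1 oligodendrocyte, 1 precursor and 1 microglia marker rose. Among the 6 libraries the sums were highest in Reactivated replicate 1 for all 4 of these lists, and the part of glial RNA in the results below was not tested. The part of the shift in granule cell and pyramidal neuron markers in those results was not tested either. A change in the mix of neurons cannot be told apart there from a change within them. Of 12 blood vessel markers 1 rose and 2 fell, of 8 choroid plexus and ependyma markers 2 rose and 1 fell, and of 8 mossy cell markers 3 rose and 1 fell.

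**Figure D2:**
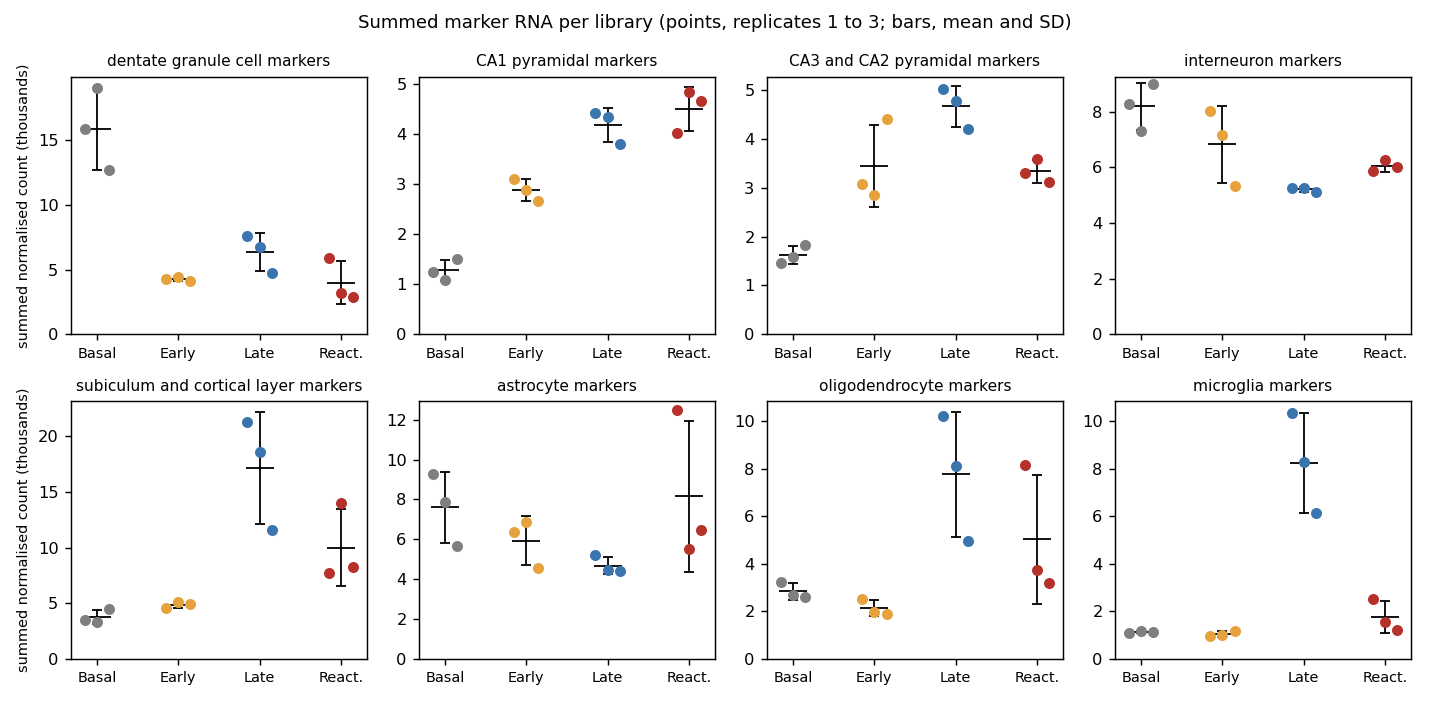
Summed normalised counts (axis in units of 1000) of 8 marker lists in each of the 12 libraries, with the mean and SD of each group. The Reactivated libraries lie below all Basal libraries for granule cell and interneuron markers and above them for CA1, CA3 and CA2, and subiculum and cortical layer markers, while the astrocyte sums of both groups overlap.

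Immediate early genes were higher in the Reactivated nuclei. Of 28 tested of 33 listed, 16 rose and 2 fell, and the median log2 change was 1.15. The summed normalised count of the 33 listed was 4379.3, 5556.7 and 5403.0 in Reactivated libraries and 2257.9, 2140.3 and 2576.1 in Basal libraries. It was 3821.1 to 4061.5 in Late and 3261.9 to 3819.3 in Early. Arc, whose protein was stained for the sort, was counted at 499.7, 712.7 and 766.4 against 150.3, 102.1 and 183.0 (4.52-fold, adjusted p = 3.33e-05). Its Late libraries held 601.7, 635.4 and 540.7 and overlapped with Reactivated (adjusted p = 0.651 for the difference). Npas4, a transcription factor induced by calcium entry, stood at 151.4, 195.3 and 174.1 against 62.18, 53.87 and 74.63 (log2 1.44 ± 0.194, adjusted p = 0.000132). The orphan nuclear receptor gene Nr4a1 stood at 334.5, 431.2 and 574.6 against 142.5, 116.7 and 159.3 (log2 1.68 ± 0.189, adjusted p = 4.08e-05). Neither Npas4 nor Nr4a1 passed against Late (adjusted p = 0.843 and 0.356), although Nr4a1 was higher under scaling to the same total (log2 0.61, adjusted p = 0.0488).

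Promoters of 3 of the 16 immediate early genes that rose are shown as examples. The reason is that the cAMP response element, bound by CREB, is a known way by which activity reaches such genes. The 3 were picked by name and do not stand apart as a set from the other genes that rose. Each line gives the 250 bases before the transcription start (RefSeq, build GRCm38.p6, 5′ to 3′ on the gene's strand), with the short form of the element, TGACG or CGTCA, in capitals.
Fos, chr12:85473640-85473889, plus strand: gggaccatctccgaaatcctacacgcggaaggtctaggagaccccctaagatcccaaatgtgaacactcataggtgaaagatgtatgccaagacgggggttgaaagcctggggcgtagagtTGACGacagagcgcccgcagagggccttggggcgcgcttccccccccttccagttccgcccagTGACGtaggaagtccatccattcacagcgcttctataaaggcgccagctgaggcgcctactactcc
Npas4, chr19:4989972-4990221, minus strand: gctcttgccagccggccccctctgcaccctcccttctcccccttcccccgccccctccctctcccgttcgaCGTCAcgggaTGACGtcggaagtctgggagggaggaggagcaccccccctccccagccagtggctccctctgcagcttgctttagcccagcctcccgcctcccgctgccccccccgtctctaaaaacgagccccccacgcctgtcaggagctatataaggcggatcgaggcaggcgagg
Nr4a1, chr15:101266596-101266845, plus strand: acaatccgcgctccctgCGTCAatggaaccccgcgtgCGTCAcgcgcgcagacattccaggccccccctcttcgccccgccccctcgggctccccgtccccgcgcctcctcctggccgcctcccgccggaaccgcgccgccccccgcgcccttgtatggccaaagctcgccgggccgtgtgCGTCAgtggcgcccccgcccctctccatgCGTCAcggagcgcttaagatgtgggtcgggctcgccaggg
The window of Fos held 2 such short sites, that of Npas4 2 and that of Nr4a1 4. Of 21 immediate early genes with a promoter in the table, 13 (61.9%) held TGACG or CGTCA in at least 1 window, and 2 held the full palindrome TGACGTCA, which contains both. Of all 11441 tested genes with a promoter there, 28.6% held the short form and 2.85% the palindrome. Among the 12 immediate early genes that rose and have a promoter there, 8 held the short form and none the palindrome.

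Members of the Egr family of zinc finger factors were among the early genes higher than in Late. Egr1 was counted at 278.1, 382.8 and 318.8 in Reactivated, 116.6, 93.15 and 86.83 in Basal, and 141.7, 133.4 and 165.3 in Late libraries. It rose 3.33-fold over Basal (adjusted p = 3.79e-05), and its Reactivated libraries lay above all Late libraries (log2 1.15 ± 0.187, adjusted p = 0.000455). Egr3 (1.75-fold over Basal, adjusted p = 0.00188, and 0.208 under scaling to the same total) and Egr4 (4.33-fold, adjusted p = 0.000195) were above Late too, by 0.76 and 1.07 on the log2 scale (adjusted p = 0.00391 and 0.0145), a call that Egr4 lost without Late replicate 2 or 3 (0.0556 and 0.07). Of all genes tested, 22.6% differed between Reactivated and Late, with 10.3% higher and 12.3% lower. The higher ones made up 45.6% of these calls, 58.7% with upper quartile scaling and 78.1% under scaling to the same total. The higher genes numbered 1615, and 815 and 829 without Late replicates 1 and 2. Of the 28 immediate early genes, 6 were higher than in Late and 2 lower, and 12 were higher and none lower under scaling to the same total. Fosb, an AP-1 subunit that builds up with repeated activity, was 1 of the 2: at 60.58, 64.23 and 68.38 it rose 2.98-fold over the 15.54, 28.06 and 20.81 of Basal (adjusted p = 0.000493) and lay below the 148.9, 116.2 and 134.5 of Late (log2 −1.05, adjusted p = 0.00467, and 0.0679 under scaling to the same total). Jun, another AP-1 subunit, did not differ from Basal beyond its spread (log2 0.15 ± 0.153, adjusted p = 0.455) but was above Late (1.19, adjusted p = 8.63e-05).

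Fos itself had few counts, 15.14, 51.92 and 24.87 against 5.182, 5.612 and 10.76, a rise of 4.1-fold (adjusted p = 0.00563) that was 2.68-fold without Reactivated replicate 2. The AP-1 subunit genes Fosl2 (3.63-fold), Junb (3.44-fold) and Jund (2.4-fold) rose, with adjusted p-values of 4.95e-05, 0.000193 and 0.00146, and so did Nr4a3 (3.51-fold, adjusted p = 0.000641, and 5.28-fold without Basal replicate 3). Nr4a2 rose 2.32-fold (adjusted p = 0.0136), a call lost without Reactivated replicate 3 (0.0671) or Basal replicate 2 (0.0513) and under scaling to the same total (0.126). Btg2, an antiproliferative early gene, fell from 114.0, 113.4 and 119.8 to 12.39, 15.84 and 25.75 (6.27-fold, adjusted p = 7.19e-05) against the direction of the list.

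Among 25 late response genes, whose transcription follows the first wave, 10 rose and none fell, with a median of 0.443 that was −0.037 under scaling to the same total, where 4 rose. Vgf, a precursor of secreted neuropeptides, rose from 240.9, 251.4 and 393.2 to 1693, 2048 and 1690 (log2 2.61 ± 0.188, adjusted p = 2.99e-06). Nptx2, a secreted pentraxin that clusters AMPA receptors, rose from 80.32, 57.24 and 43.06 to 240.9, 278.1 and 177.6 (3.92-fold, adjusted p = 5.46e-05) and exceeded its Late libraries of 115.3, 97.75 and 98.05 (log2 1.16, adjusted p = 0.00167). Homer1, a scaffold gene with a short activity-induced form, rose 1.67-fold (adjusted p = 0.00245), the kinase gene Plk2 1.75-fold (adjusted p = 0.000558) and the Ras activator gene Rasgrp1 2.03-fold (adjusted p = 0.000281). The calls of Homer1 and Plk2 were lost under scaling to the same total (0.282 and 0.142). Bdnf, the neurotrophin most tied to hippocampal plasticity, did not pass: its libraries held 307.0, 522.7 and 247.8 in Reactivated and 260.4, 332.2 and 320.0 in Basal (log2 0.24 ± 0.254, adjusted p = 0.477), and it was below Late (−0.98, adjusted p = 0.0119), where 771.0, 854.7 and 504.3 were counted. The call of Bdnf against Late was lost without Reactivated replicate 3 or Late replicate 2 and under scaling to the same total (0.0506, 0.0651 and 0.066). Of 11 neurotrophin and receptor genes, 2 rose and 1 fell. The prostaglandin synthase gene Ptgs2 and the activin gene Inhba did not pass either, with log2 changes of −0.09 and −0.28, although Inhba was lower under scaling to the same total (−0.77, adjusted p = 0.0228).

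**Figure D3:**
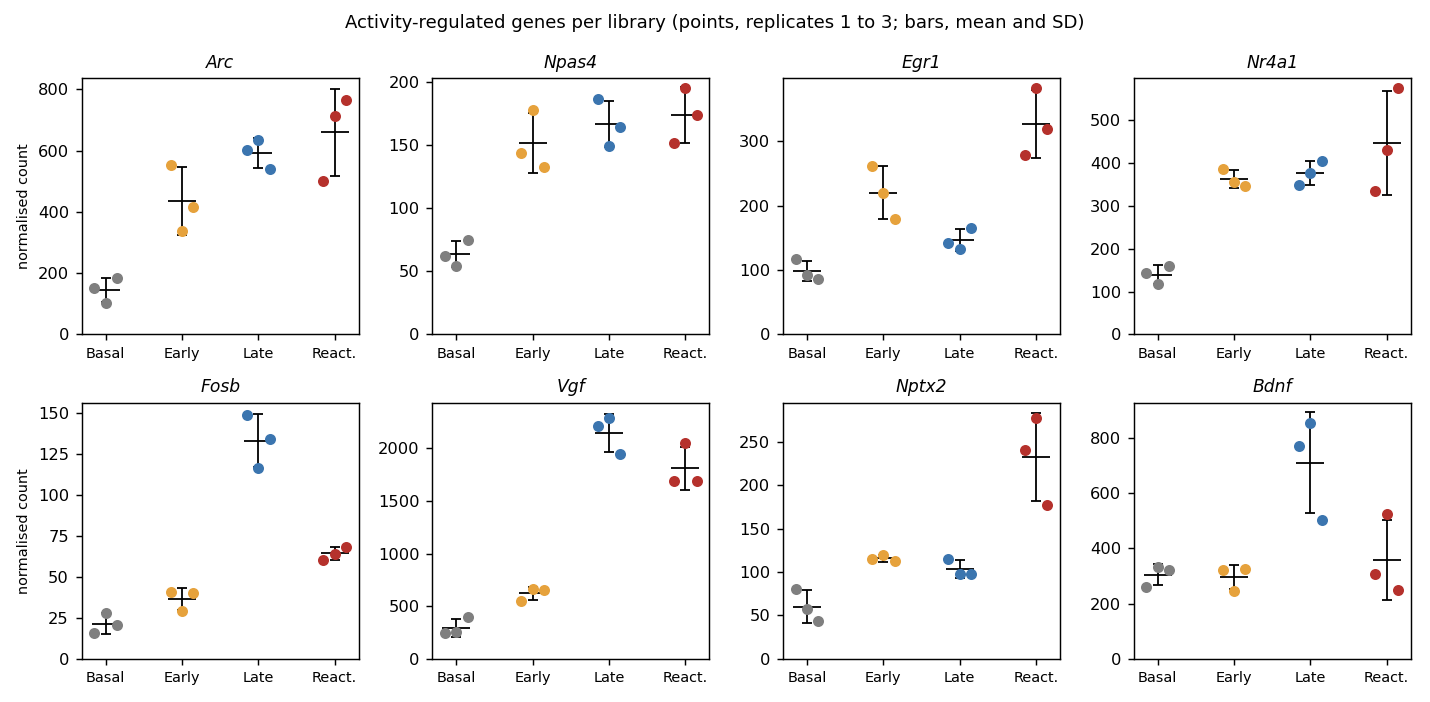
Normalised counts of 8 activity-regulated genes in each of the 12 libraries, with the mean and SD of each group. Reactivated libraries lie above all Basal libraries for Arc, Npas4, Egr1, Nr4a1, Fosb, Vgf and Nptx2, and not for Bdnf, and above all Late libraries for Egr1 and Nptx2.

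Feedback inhibitors of the ERK kinase pathway, the cascade that links calcium and growth factor signals to these genes, were in part higher. Of 16 tested, 5 rose and 1 fell, and 3 rose under scaling to the same total. Dusp6, a cytosolic phosphatase of ERK, rose from 20.73, 15.71 and 45.21 to 130.8, 175.1 and 158.1 (5.43-fold, adjusted p = 9.42e-05), and 8.52-fold without Basal replicate 3. Dusp5, the nuclear counterpart, rose 5.19-fold (adjusted p = 0.000235). Spry2, an inhibitor upstream of Ras, stood at 450.2, 1517 and 414.7 and rose 4.38-fold with and 2.38-fold without replicate 2, whereas its relative Spry1 fell 3.21-fold (adjusted p = 0.0237), a call lost without Basal replicate 2 or 3 (0.0513 and 0.0633), and fell 5.22-fold without Reactivated replicate 3. Of 19 CREB, MEF2 and SRF factors and coactivators, 8 fell and 2 rose, with a median of −0.198, and 4 to 5 fell without Reactivated replicate 1, Basal replicate 1 or Basal replicate 2 and 13 under scaling to the same total. Elk1 and Elk3, partners of SRF, fell 2.14-fold and 4.58-fold (adjusted p = 0.000473 and 0.000105). Creb1 stood at 158.3, 183.0 and 238.0 against 307.0, 324.4 and 252.6 and fell 1.52-fold (adjusted p = 0.026), a call lost without each of 4 single libraries. Srf rose 1.65-fold (adjusted p = 0.0144), a call lost under scaling to the same total (0.327) and without Reactivated replicate 1 or Basal replicate 2 (0.0684 and 0.054).

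Bc1, a short noncoding RNA that is made by RNA polymerase III, carried into dendrites and known as a repressor of translation, had one of the clearest differences in the comparison. Its 168 bases are shown because its Reactivated libraries lay above those of every other group (GENCODE vM21, build GRCm38, chr7:144914470-144914637, plus strand). Capitals mark its A-rich middle, the longest run of A with no 2 other letters in a row, which spans bases 77 to 117 and holds 36 A in 41 bases.
Bc1: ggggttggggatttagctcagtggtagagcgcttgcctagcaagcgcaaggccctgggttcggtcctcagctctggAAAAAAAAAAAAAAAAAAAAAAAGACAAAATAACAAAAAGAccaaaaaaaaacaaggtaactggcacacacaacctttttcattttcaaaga
Bc1 was counted at 6049, 6057 and 4034 in Reactivated and at 510.4, 537.6 and 713.3 in Basal libraries, a rise of 9.15-fold (log2 3.19 ± 0.219, adjusted p = 2.99e-06). Early libraries held 1302, 1042 and 1467, below all Reactivated libraries (log2 2.08, adjusted p = 0.000195). Late libraries held 198.2, 235.1 and 154.1, the lowest of the 4 groups, and Reactivated stood 4.79 ± 0.238 above them on the log2 scale (adjusted p = 3.49e-08). Of all genes tested, 26.2% differed between Reactivated and Early, with 13.5% higher and 12.7% lower. The higher ones made up 51.6% of these calls, 39.9% with upper quartile scaling and 14.4% under scaling to the same total. They numbered 2120, and 860 and 783 without Early replicates 1 and 2, and the lower ones 1988, and 933 and 915.

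Genes of axon growth and of tubulin rose together. Of 17 tested, 14 rose and none fell, with a median of 1.53, and 11 were higher than in Late and none lower. Basp1, a membrane protein of growth cones, was counted at 5178, 5387 and 4415 against 467.6, 393.9 and 731.2 (log2 3.23 ± 0.311, adjusted p = 1.52e-05), with 2012, 1881 and 1332 in Late (log2 1.52, adjusted p = 0.00165). Its relatives in growth cone membranes rose as well, Gap43 by 4.63-fold (adjusted p = 7.19e-05) and Marcks by 2.91-fold (adjusted p = 0.000635). Of the stathmins, which bind tubulin dimers, Stmn2 rose from 180.1, 94.28 and 205.2 to 1038, 1198 and 1015 (6.74-fold, adjusted p = 1.52e-05) and Stmn3 from 393.8, 325.5 and 427.7 to 1521, 1506 and 1480 (3.92-fold, adjusted p = 3.18e-06). The neuron-specific Tubb3 rose from 99.75, 89.79 and 129.9 to 345.6, 383.6 and 356.1 (3.37-fold, adjusted p = 1.52e-05). Tubb2a and Tubb4a rose 2.88-fold and 2.58-fold, and exceeded Late by 1.81 and 1.06 on the log2 scale (adjusted p = 4.81e-05 and 0.000137). Kinesin motors, which carry cargo along these microtubules, rose in 12 of 16 and fell in 2, with a median of 0.568, and 4 rose under scaling to the same total and 6 without Basal replicate 1 or 2. Kif5a and Kif5c, heavy chains of the main axonal motor, both rose 2.26-fold (adjusted p = 0.000304 and 0.000286), while Kif26b fell 2.56-fold (adjusted p = 0.000802).

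Messages for ribosomes and for the respiratory chain were higher than in Basal and than in Late. Of 79 cytosolic ribosomal protein genes, 43 rose over Basal and 3 fell, with a median of 0.639, and 42 were above Late (26 without Late replicate 1 or 2) and none below (1 without Reactivated replicate 1). Scaling to the same total left 13 that rose over Basal and 6 that fell, where the median of the list, 0.154, was 0.617 above that of all genes. Rps15 rose from 106.2, 111.1 and 105.5 to 480.5, 482.2 and 291.3 (3.88-fold, adjusted p = 3.33e-05), and Rplp1, a stalk protein of the large subunit, from 120.5, 93.15 and 137.1 to 539.7, 358.1 and 325.9 (3.46-fold, adjusted p = 8.7e-05). Rplp1 exceeded Late by 1.39 on the log2 scale (adjusted p = 0.000401). Rps15a fell 2.18-fold (adjusted p = 0.000678). The summed count of all 87 listed was 22530, 17902 and 17043 in Reactivated, highest in the library with most glial RNA, and 12078 to 13156 in Basal. Ribosomal protein genes have many processed copies in the genome, and how the authors' counting treated reads that fit several places was not stated.

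Of 77 genes of the respiratory chain and ATP synthase, 33 rose over Basal and 3 fell, with a median of 0.578, and 41 were above Late and 2 below, with 23 to 25 above without Reactivated replicate 2, Late replicate 1 or Late replicate 2. Under scaling to the same total 10 rose and 5 fell, and 21 rose when only the 6 libraries were fitted. Cox8a, a subunit of cytochrome c oxidase, rose from 95.86, 96.52 and 71.04 to 242.3, 249.0 and 186.5 (2.59-fold, adjusted p = 0.000448), and Cox6a1 rose 3.87-fold (adjusted p = 0.000151). The summed count of all 85 listed was 11329 to 12613 in Reactivated, 7896.7 to 8646.9 in Basal and 7965.7 to 8503.2 in Late. Of 76 mitochondrial ribosomal proteins 10 rose and 11 fell, with 3 to 4 and 6 to 7 without Basal replicate 1 or 2. Of 61 translation initiation and elongation factors 18 rose and 5 fell (3 without Basal replicate 1 or 2), and of 36 proteasome subunits 13 rose (7 without Basal replicate 1 or 2) and 3 fell (1 without Basal replicate 2). Under scaling to the same total more members fell than rose in all 3 lists, with 1 mitochondrial ribosomal protein higher and 21 lower, 3 translation factors higher and 15 lower, and 2 proteasome subunits higher and 6 lower. The medians of these last 3 lists, 0.151, 0.259 and 0.255, were −0.329, −0.227 and −0.218 under scaling to the same total. With that scaling the median of all genes was −0.463, and those of the 3 lists lay 0.134, 0.236 and 0.245 above it.

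**Figure D4:**
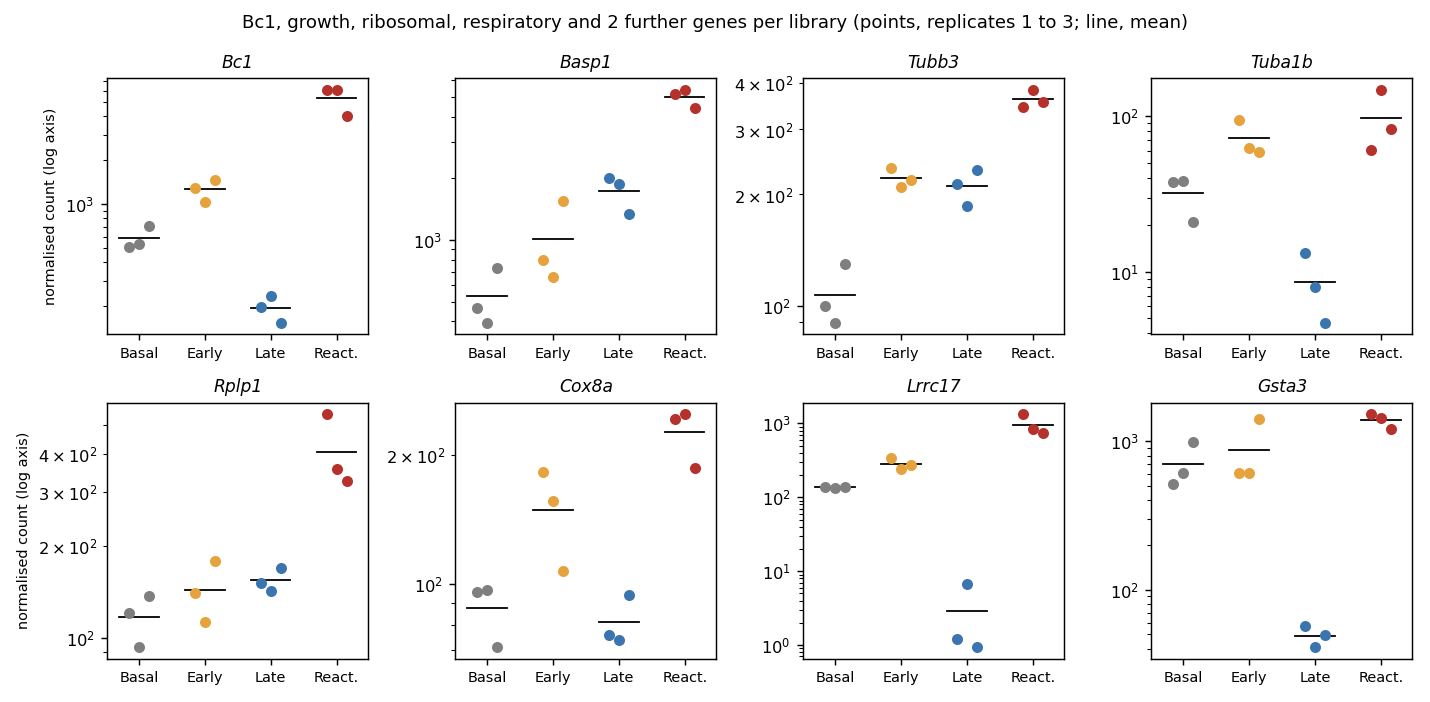
Normalised counts (log axis) of 8 genes in each of the 12 libraries, with a line at the mean of each group. Bc1 stands at 4034 to 6057 in Reactivated, above every other library, and lowest in Late, while Lrrc17 and Gsta3 are close to or far below 100 in Late and above it in the other groups.

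At the synapse, genes of transmitter release and of the postsynaptic scaffold rose more often than they fell. Among the receptor lists, only that of GABA-A receptors fell clearly more often than it rose. Of 28 presynaptic release genes 19 rose and 2 fell, with a median of 0.643, and 10 rose under scaling to the same total. Cplx1, a clamp of the fusion machinery, rose from 208.6, 142.5 and 306.4 to 1027, 1403 and 1328 (5.67-fold, adjusted p = 2.28e-05), and Sv2b, a vesicle protein, from 549.3, 325.5 and 402.6 to 1386, 1835 and 2028 (4.12-fold, adjusted p = 1.52e-05). Slc17a7, the vesicular transporter that defines most excitatory neurons of cortex and hippocampus, rose from 2043, 2146 and 1578 to 4425, 5392 and 4951 (2.56-fold, adjusted p = 2.87e-05). The fusion genes Snap25 and Vamp2 rose 2.21-fold and 2.12-fold (adjusted p = 5.46e-05 and 9.85e-05) and were both above Late (adjusted p = 0.000145 and 0.000746). Syn3, a synapsin, was 1 of the 2 that fell, from 1510, 1814 and 1014 to 466.7, 416.2 and 345.5 (3.53-fold, adjusted p = 3.85e-05).

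Of 16 scaffold genes 10 rose and 1 fell, with a median of 0.595, and 5 rose under scaling to the same total. Shank1, a master scaffold of the spine, rose from 5428, 5203 and 8344 to 13620, 13200 and 11900 (2.04-fold, adjusted p = 0.000857), and Dlgap3 rose 2.55-fold (adjusted p = 0.000372). Dlg2 (PSD-93) fell 1.59-fold (adjusted p = 0.00148). Of 13 calcium/calmodulin-dependent kinase genes 8 rose and 1 fell, and 4 rose under scaling to the same total and 5 without Basal replicate 1 or 2. Camk4, the nuclear kinase that phosphorylates CREB, rose from 414.5, 363.6 and 511.6 to 933.4, 1618 and 1025 (2.77-fold, adjusted p = 0.000185), Camkk1 fell 1.54-fold (adjusted p = 0.00804), and Camk2a did not pass (log2 0.34 ± 0.149, adjusted p = 0.0847, and 0.0409 without Reactivated replicate 3).

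Glutamate receptor genes passed less often than the 39.4% of all genes in 3 of 4 families, a difference that was not tested. Of 17 AMPA receptor genes 2 rose and 2 fell, of 7 NMDA receptor genes none rose and 1 fell, of 7 kainate receptor genes 3 rose (1 without Reactivated replicate 2 or Basal replicate 1 or under scaling to the same total) and 2 fell, and of 7 metabotropic receptor genes 1 rose and 1 fell. Gria2, the subunit that keeps AMPA receptors impermeable to calcium, fell from 14760, 15130 and 11560 to 6703, 8586 and 8268 (1.76-fold, adjusted p = 0.000656). Grin2a fell 1.5-fold (adjusted p = 0.00381), and Grin2b did not pass (log2 −0.21 ± 0.126, adjusted p = 0.2) except under scaling to the same total (−0.70, adjusted p = 0.00512). The kainate subunit gene Grik2 fell 2.79-fold (adjusted p = 6.01e-05), and Neto1, an auxiliary subunit, rose 1.96-fold (adjusted p = 0.000473). Of 15 genes of GABA-A receptors and their anchors 7 fell and none rose, with a median of −0.456, and 3 to 4 fell without Reactivated replicate 1, Basal replicate 1 or Basal replicate 2. Gabrd, a subunit of receptors outside synapses that is abundant in granule cells, fell 2.02-fold (adjusted p = 0.0198), a call lost without Reactivated replicate 3, Basal replicate 1 or Basal replicate 2. Of the adhesion molecules that join both sides, 5 of 14 rose and 4 fell, and 1 rose under scaling to the same total, 1 fell without Basal replicate 1, and 2 fell without Reactivated replicate 1, Reactivated replicate 3 or Basal replicate 2. Nrxn2 rose 2.27-fold (adjusted p = 0.000213), and Lrrtm4, its partner at granule cell synapses, fell from 1755, 1972 and 1252 to 528.7, 475.2 and 418.3 (3.5-fold, adjusted p = 4.08e-05).

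Of 31 potassium channel genes 8 rose and 9 fell, and 3 rose and 16 fell under scaling to the same total. Of 22 sodium and calcium channel genes 11 rose and 5 fell. The latter list had a median of 0.309 that became −0.177 under scaling to the same total, where 4 rose and 8 fell, and 7 of its genes rose without Reactivated replicate 2 or Basal replicate 2 and 3 fell without the latter. Kcnq5, a subunit of the M current, rose from 204.7, 171.7 and 211.0 to 475.0, 474.3 and 488.4 (2.44-fold, adjusted p = 3.71e-05). Kcnip4, a partner of A-type channels, fell 3.32-fold (adjusted p = 0.000195) and Kcnj6, a G protein-gated channel, 1.86-fold (adjusted p = 0.000391). The T-type calcium channel genes Cacna1g and Cacna1i rose 2.54-fold and 1.74-fold (adjusted p = 0.000479 and 0.000405), although Cacna1i not under scaling to the same total (0.104), while Scn3a, a sodium channel gene of young neurons, fell 1.99-fold (adjusted p = 9.13e-05). Of 27 monoamine and acetylcholine receptors 7 rose (3 under scaling to the same total) and 2 fell, with Chrm3 up 3.42-fold (adjusted p = 9.08e-05), Adra2a up 4.04-fold (adjusted p = 0.000266) and Htr4 down 2.99-fold (adjusted p = 0.000266). Of 21 cAMP signalling genes 11 rose and 4 fell, and 5 rose without Basal replicate 1 or 2, 6 without Reactivated replicate 3 and 7 without Reactivated replicate 2. Without Basal replicate 2, 2 of them fell, and under scaling to the same total 5 rose and 7 fell. The calcium-dependent phosphodiesterase gene Pde1a rose 3.6-fold and its relative Pde1b fell 2.03-fold (adjusted p = 3.78e-05 and 0.000152). Of 38 axon guidance genes 15 were higher and 9 lower than in Basal, and 5 and 16 under scaling to the same total, while none was higher and 11 were lower than in Late, and 3 and 7 with that scaling. Sema5a fell from 1571, 2103 and 931.4 to 384.1, 226.1 and 226.5 (5.53-fold, adjusted p = 4.39e-05), and the netrin receptor gene Dcc rose 2.31-fold over Basal (adjusted p = 0.000737) and was 1.42 below Late on the log2 scale (adjusted p = 0.000221).

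Of the smaller secreted and stress-related lists, the kallikrein-related proteases rose over Basal in 6 of 6 tested members, with a median of 3.0. Against Early, 4 of the 6 were lower and 1 higher, with a median of −1.26, beside 12.7% lower and 13.5% higher among all genes. Against Late, 1 was lower and none higher. Klk8 (neuropsin), a protease of the synaptic matrix, rose from 2.591, 6.734 and 5.023 to 45.43, 80.95 and 44.4 (11.5-fold, adjusted p = 4.08e-05). Klk10 rose from 2.591, 2.245 and 5.741 to 41.3, 42.24 and 39.96 (10.4-fold, adjusted p = 7.71e-05) and 16.3-fold without Basal replicate 3, and it was lower than in Early (log2 −1.29, adjusted p = 0.00812). Klk14 rose from 15.54, 15.71 and 62.43 to 671.8, 248.1 and 155.4 (10.5-fold, adjusted p = 0.00113), and 5.96-fold without Reactivated replicate 1 and 22.5-fold without Basal replicate 3. Of 10 activin genes and receptors 3 rose and 1 fell: Inhbb, an activin subunit, rose from 3.886, 13.47 and 7.893 to 74.34, 106.5 and 69.27 (9.71-fold, adjusted p = 3.71e-05), and the receptor gene Acvr2a fell 1.76-fold (adjusted p = 0.00101). Of 20 heat shock genes 10 rose and none fell, with a median of 0.628, 3 rose under scaling to the same total, and 8 were above Late (4 without Late replicate 1 or 2 and 14 under scaling to the same total) and none below. Hsp90ab1, a constitutive chaperone, rose from 1946, 1672 and 2442 to 5466, 6401 and 5454 (2.86-fold, adjusted p = 4.84e-05), and the inducible Hspa1b from 5.182, 4.489 and 5.023 to 38.55, 15.84 and 23.09 (5.08-fold, adjusted p = 0.00264). Of 13 NF-kappaB genes 6 rose (3 under scaling to the same total) and 1 fell. Relb, a transcription factor of the family, rose from 7.772, 1.122 and 13.63 to 93.62, 91.51 and 52.4 (9.61-fold, adjusted p = 0.000194, and 18-fold without Basal replicate 3), and the inhibitor genes Tnfaip3 and Nfkbie rose 4.96-fold and 6.81-fold (adjusted p = 0.00144 and 0.00162), the latter 11.7-fold without Basal replicate 3.

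Of 17 circadian clock genes 7 rose and 3 fell, with a median of 0.338 that was −0.148 under scaling to the same total, where 3 rose and 6 fell. Dbp, an output of the clock, rose from 88.09, 113.4 and 134.2 to 473.6, 301.8 and 318.8 (3.22-fold, adjusted p = 0.000355) and exceeded Late by 1.72 on the log2 scale (adjusted p = 0.000324). Per3 fell 2.17-fold (adjusted p = 0.00147), and Bhlhe41 rose 6.42-fold with Reactivated replicate 2 and 2.66-fold without it. No hour of collection was stated. Of 15 glucocorticoid receptors and targets 1 rose and 2 fell, and Fkbp5, a sensitive target, did not pass (log2 0.19 ± 0.179, adjusted p = 0.415). Pdk4, the 1 that rose, stood at 206.5, 172.5 and 95.02 against 41.45, 66.22 and 71.04 (2.58-fold, adjusted p = 0.0027), far below its Late libraries of 1803, 1476 and 1030 (adjusted p = 2.38e-06). Of 19 neuropeptide genes 4 rose and 3 fell, and 2 rose without Reactivated replicate 2 and 5 fell without Reactivated replicate 1 or Basal replicate 3, and 2 rose and 5 fell under scaling to the same total. Of 23 Rab GTPases 7 rose and none fell, and 3 rose under scaling to the same total.

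Of 13 cohesin and CTCF genes, which shape chromosome loops, 7 fell (11 under scaling to the same total) and none rose, with a median of −0.338. Nipbl, the loader of cohesin, stood at 670.5, 1015 and 914.7 against 1850, 1730 and 1363 (1.9-fold lower, adjusted p = 0.00128), and Stag1, a cohesin subunit, at 715.9, 717.1 and 762.9 against 1193, 1385 and 1158 (1.7-fold lower, adjusted p = 0.000317). Ctcf did not pass (log2 0.26 ± 0.14, adjusted p = 0.159), but passed as higher with limma-voom (adjusted p = 0.048) and without Basal replicate 3 (0.0403). Of 38 histone modifying enzymes 10 rose and 11 fell, with Hdac4, a deacetylase that shuttles with activity, up 2.87-fold (adjusted p = 0.000485) and the demethylase genes Kdm6a and Kdm5a down 1.86-fold and 1.5-fold (adjusted p = 0.000553 and 0.00143). Without Basal replicate 1, 4 of these enzymes rose and 6 fell, without Basal replicate 2, 5 rose and 7 fell, and 6 to 7 fell without each Reactivated library. Under scaling to the same total 2 rose and 21 fell. Of 17 DNA methylation and demethylation genes 5 rose and 3 fell, and none rose and 6 fell under scaling to the same total. Without Reactivated replicate 1, Basal replicate 1 or Basal replicate 2, 2 rose, and without either of the latter 1 fell. Of 32 hnRNP and SR splicing factors 7 rose and 12 fell, with Srsf10 and Srsf1 down 1.75-fold and 1.59-fold (adjusted p = 0.000558 and 0.00199) and Hnrnpab up 2.11-fold (adjusted p = 0.00111). The number of these factors that rose was 2 under scaling to the same total, and over the fits without 1 library from 2 without Basal replicate 2 to 11 without Basal replicate 3, with 3 without Basal replicate 1 and 4 without Reactivated replicate 2. Of 20 regulators of local translation 2 rose and 3 fell, and 5 fell without Reactivated replicate 3, 1 without Basal replicate 2 and 11 under scaling to the same total. Clustered protocadherins, cell surface proteins that give neurons a combinatorial identity, fell in 31 of 56 and rose in none, with a median of −0.659. Pcdhb9 stood at 19.27, 16.72 and 28.42 against 63.48, 79.69 and 83.24 (3.49-fold lower, adjusted p = 0.000273), and Pcdhgb4 fell 2.26-fold (adjusted p = 0.000457). Members of the alpha and gamma clusters share their last exons, so their counts may not be separate. Of 16 developmental homeobox, GATA and forkhead factors, 2 rose and none fell against Basal, and none was above and 11 were below Late, where the median log2 change over Basal was 2.39. Between Late and Basal 49.0% of all genes differed, 25.4% higher and 23.6% lower.

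Short structural RNAs were higher than in Basal. Of 97 small nucleolar and Cajal body RNAs, which guide modification of ribosomal and spliceosomal RNA, 59 rose and none fell, with a median of 1.43. The count was 33 without Reactivated replicate 1, 37 without Basal replicate 1 and 36 without Basal replicate 2. Snora23 stood at 11340, 4400 and 7210 against 646.4, 782.3 and 1640 (7.45-fold, adjusted p = 0.000219), and Snora35 at 3202, 551.7 and 1485 against 211.2, 129.1 and 197.3 (9.71-fold, adjusted p = 0.000134, and 5.67-fold without Reactivated replicate 1). Against Late, 19 of the 97 small RNAs were lower and 6 higher, with a median of −0.556, beside 12.3% lower and 10.3% higher among all genes. Of 11 members of the structural RNA list, which also holds the long precursor Rn45s and the row of the coding gene Lars2, 7 rose over Basal. Among them were Rmrp and Rpph1, the RNA parts of 2 ribonucleases, which rose 3.6-fold and 4.69-fold (adjusted p = 0.00209 and 0.00133). Rn45s itself rose 4.16-fold (adjusted p = 0.00228), and 6.75-fold without Basal replicate 3. Lars2, the row of a mitochondrial leucyl-tRNA synthetase gene, rose 12.3-fold (adjusted p = 0.00101), and 21.7-fold without Basal replicate 3. It took 4.08% ± 0.536 of all counts in Reactivated and 0.45% ± 0.305 in Basal libraries, with exact permutation p = 0.1. Malat1, a nuclear noncoding RNA of speckles, took 3.8% ± 0.725 against 7.16% ± 0.907, also with exact permutation p = 0.1, and fell by 0.43 on the log2 scale (adjusted p = 0.0269), a call lost without Reactivated replicate 1, Basal replicate 1 or Basal replicate 2 (0.111, 0.0545 and 0.098). Of 14 nuclear long noncoding RNAs 3 rose and 3 fell, with 1 that rose without Basal replicate 1 or 2 and 1 that rose and 5 that fell under scaling to the same total. The imprinted Meg3 did not pass (log2 0.14 ± 0.16, adjusted p = 0.502). Of 18 replication-dependent histone genes tested 3 rose and none fell, with Hist1h1e, a linker histone, up from 38.86, 33.67 and 59.56 to 304.3, 181.3 and 204.3 (5.08-fold, adjusted p = 3.71e-05).

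**Figure D5:**
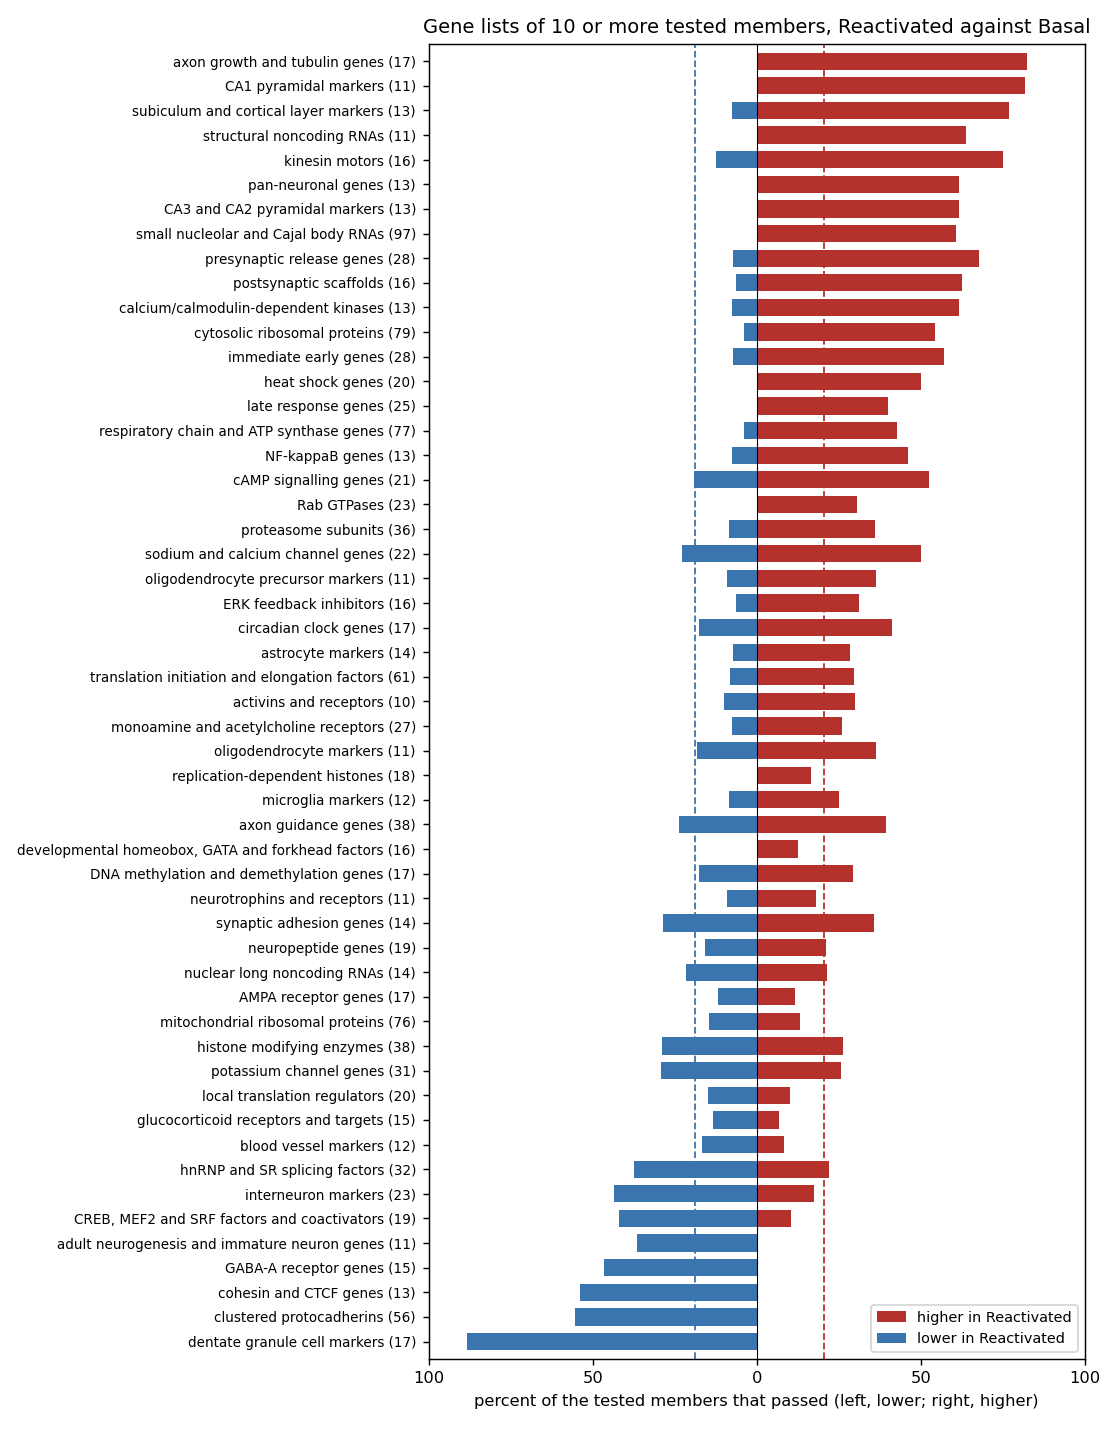
Percent of the tested members of each list of 10 or more that were higher (red, right) or lower (blue, left) in Reactivated than in Basal at an adjusted p below 0.05, with the number tested in brackets and dashed lines at the 20.6% and 18.8% of all genes. Axon growth and tubulin genes (14 of 17) and CA1 markers (9 of 11) are at the top, and granule cell markers (15 of 17) at the bottom.

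The largest rises brought in genes from no list. They were taken among genes with a mean normalised count of 50 or more in the higher group and no overlap between groups. Unnamed gene models, small nucleolar and Cajal body RNAs and microRNAs were left out. After Papl, a purple acid phosphatase gene, which rose from 1.295, 1.122 and 10.76 to 86.73, 45.76 and 65.72 (12.4-fold, adjusted p = 0.0003, and 49.4-fold without Basal replicate 3), came Tmem38b, a potassium channel of the endoplasmic reticulum, at 12090, 3285 and 8215 against 531.1, 417.5 and 958.0 (12.3-fold, adjusted p = 0.000102). Adamts7, a secreted metalloprotease, rose from 20.73, 33.67 and 71.04 to 695.2, 346.7 and 210.5 (9.43-fold, adjusted p = 0.000396, and 15-fold without Basal replicate 3), and Gcm1, a transcription factor of placenta, from 51.82, 66.22 and 147.8 to 1400, 549.1 and 357.9 (8.35-fold, 4.94-fold without Reactivated replicate 1 and 12.9-fold without Basal replicate 3). The noncoding AF357399 rose 9.53-fold (adjusted p = 0.000465), 5.44-fold without Reactivated replicate 1 and 15-fold without Basal replicate 3. Hkdc1, a hexokinase relative, rose 7.65-fold (adjusted p = 0.000203). Prr15 stood at 622.3, 2972 and 543.5 against 66.07, 112.2 and 255.5, so that 1 library carried much of its rise, which was 9.32-fold with and 3.92-fold without Reactivated replicate 2, and 15.4-fold without Basal replicate 3. The same library stood alone for Ppm1h, a protein phosphatase gene (4656, 21930 and 4112 against 959.9, 1230 and 1912), which rose 7.47-fold with it and 3.2-fold without it.

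The largest fall by the same rule was that of Card14, a scaffold of NF-kappaB signalling, from 58.29, 130.2 and 68.89 to 2.753, 3.52 and 2.664 (27.5-fold, adjusted p = 1.52e-05), and its Late and Early means of 4.79 and 7.053 were low as well. Tmem45b fell from 116.6, 138.0 and 78.93 to 8.26, 0.0 and 13.32 (15.4-fold, adjusted p = 0.000236, with 9.79-fold without Reactivated replicate 2 and 31.9-fold without replicate 3) and was far below the Early libraries too (log2 −3.87, adjusted p = 0.000975, with −3.22 and −4.92 without Reactivated replicates 2 and 3). Cenpp, a kinetochore gene, fell from 79.02, 101.0 and 52.38 to 4.13, 3.52 and 11.54 (11.5-fold, adjusted p = 0.000112, and 19.8-fold without Reactivated replicate 3). Fcrl6, an immune receptor gene, fell 14.6-fold, and Nr1h5, a nuclear receptor gene, 10.3-fold (adjusted p = 0.000108 and 0.000383). Phxr4 fell from 620.5, 760.9 and 401.1 to 74.34, 68.63 and 64.83 (8.57-fold, adjusted p = 2.99e-06), with one of the smallest errors of this group (SE 0.221). The antisense transcript Plxna4os1 fell 8.56-fold (13.3-fold without Reactivated replicate 3) and Ccdc33 9.36-fold (16.9-fold without replicate 1). Pln, which encodes the calcium pump regulator phospholamban, and Islr had no count in Reactivated replicate 2, and their falls of 8.4-fold and 8.28-fold were 5.33-fold and 5.29-fold without that library and 15.9-fold and 12.9-fold without replicate 1. The peptide transporter gene Slc15a2 (7.86-fold, adjusted p = 5.2e-05), Vip, Lct and Dock10, described above, also met the rule. Reads of Plxna4os1 and of its sense partner cannot be told apart where the counting did not use strand.

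The summed count of the 17 microglia markers was higher in Late than in Reactivated libraries, at 6126.7 to 10345 against 1195.3 to 2507. The markers were not uniform. Of the 12 tested, 3 were lower and 1 higher in Reactivated than in Late, with a median log2 change of 0.167. The part of microglial RNA in the differences from Late was not tested. Lrrc17, which encodes a secreted leucine-rich repeat protein, stood at 1324, 832.4 and 735.3 in Reactivated, 139.9, 134.7 and 139.9 in Basal and 1.201, 6.605 and 0.9338 in Late libraries. It rose 6.95-fold over Basal (adjusted p = 9.93e-06) and exceeded Late by 8.44 ± 0.4 on the log2 scale (adjusted p = 3.38e-08), and by 9.68 without Late replicate 2. Gsta3, a glutathione transferase gene, stood at 1514, 1427 and 1214 against 56.44, 40.95 and 49.49 in Late (4.81, adjusted p = 5.86e-07). On the other side, Mmrn2, a vessel matrix gene, stood at 169.3, 305.3 and 139.4 against 12220, 11380 and 4109 (−5.49, adjusted p = 8.67e-07), and Cdx2, a homeobox gene of the gut, at 0.0, 4.4 and 3.552 against 260.6, 206.1 and 166.2 (−6.10, adjusted p = 6.52e-07). The osmosensitive channel gene Trpv4 and the semaphorin receptor gene Plxnb3 were higher than in Late by 4.60 and 3.73 (adjusted p = 1.89e-05 and 1.12e-05), and Edn1, the endothelin gene, was lower (−5.13, adjusted p = 6.51e-06, and −6.46 without Reactivated replicate 3). The row named Nrp (−5.26) and Abca15 (−5.16) followed, with adjusted p-values of 4.21e-07 and 0.000641. The value of Abca15 rests on 4 reads in all Reactivated libraries and was −8.85 to −4.51 without 1 of these libraries. Neither Cdx2 nor Abca15 passed against Basal. Against Early, Tmem38b, Lars2, Adamts7 and AF357399 were higher by 3.48, 3.07, 3.05 and 3.02 on the log2 scale (adjusted p = 0.000679, 0.00505, 0.00161 and 0.00175). Without Early replicate 3 the values of Lars2 and Adamts7 were 4.21 and 3.75, and without Reactivated replicate 1 that of AF357399 was 2.21. The endothelial receptor gene Flt1 was higher by 3.63 (adjusted p = 0.0336) but uneven, at 112.9, 14.08 and 33.75, and its call was lost without Reactivated replicate 1 or without any 1 Early library (0.0564 to 0.147). The log2 changes of Klhl10, Slamf8 and Zfp758 were −2.90, −2.76 and −2.71 (adjusted p = 0.00222, 0.00128 and 0.00492), and Cenpp was lower as well (−3.04, adjusted p = 0.00109). Without Reactivated replicate 3 the values of Klhl10, Slamf8, Zfp758 and Cenpp were −4.19, −3.49, −4.06 and −3.82.

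Genes of different length were called at different rates. Among tested genes ordered by their span in the genome (GENCODE vM21, 94.7% with a span), the shortest of 10 equal bins, with a median of 2.31 kb, had 24.8% higher and 11.8% lower and a median log2 change of 0.324. The ninth bin, with a median of 100.0 kb, had 18.4% higher and 23.2% lower and a median of −0.0548, and the longest, with 234.0 kb, 24.9% higher and 22.3% lower and 0.0325. Short genes were more often higher than lower.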

How the data were processed

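RNA of sorted hippocampal nuclei was measured in 12 libraries of 4 groups of 3. The deposited table holds gene counts, treated here as raw counts. Its name calls the values normalised, but they are whole numbers whose library totals differ, 4838166 to 11120255. Per the submitters' processing notes, Bowtie2 2.0, Cufflinks 2.2 and DESeq2 were used on build mm9. No source names the counting tool, the annotation or the use of strand. The labels' protocols name a stranded pico-input kit with ribosomal depletion and 15 PCR cycles, the design text SmartSeq2.

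Groups were taken from the titles. Of 24015 rows, 15668 with a count of 10 or more in at least 3 libraries were tested with edgeR 4.0.16 (R 4.3.3; TMM scaling, quasi-likelihood test, all 12 libraries and 4 group means, Benjamini-Hochberg adjustment, threshold 0.05). The SE is the log2 fold change divided by the root of the test's F. Shares of counts were compared by a two-sided exact permutation test. The 15 genes named each way are those with the largest change among called genes without overlap between groups. Their mean normalised count was 50 or more in the group where it was higher. Unnamed gene models (symbols with Gm and a number, LOC or Rik) were left out of this ranking. So were small nucleolar RNAs, Cajal body RNAs and microRNAs, and larger changes among them are not ranked. By the same rule 5 each way were named against Late and Early. Up to 6 were named per list. The list members, lists and rules were chosen with earlier results of these data known. Alternatives were other scalings, DESeq2 1.42.0, limma 3.58.1 (voom), other filters, only the 6 libraries, a replicate block and leaving out each library of the groups compared. Same-numbered libraries did not deviate together (r = 0.0319, −0.00192 and −0.0418), so numbers were not taken as pairs. On simulated counts of the Reactivated against Basal comparison (15668 genes), edgeR recovered 63% of 100 genes changed by 1 and 97% of 100 changed by 2 on the log2 scale. It called 6 unchanged genes. Only 200 genes were changed, far fewer than were called in the data, and all groups had the same spread. The simulation therefore does not give the recovery in these data. 27 rows whose symbol had become a date were not named. Some genes that met these rules are not reported here.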

Additional observations from a re-analysis of the deposited data

Results flagged for a closer look

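Among the genes named by rule, those listed here are given because Reactivated and Late stood on opposite sides of Basal, each past the threshold, with the difference tested as Reactivated against Late (edgeR quasi-likelihood test, log2, adjusted p). Passing that test was a condition for being listed, and several of the genes were named for their large difference from Late. The p-values here are therefore no separate evidence. The genes listed are not all those with this pattern, and how many are listed each way does not describe its balance. Higher than Basal in Reactivated and lower than Basal in Late were Lrrc17 (8.44, adjusted p = 3.38e-08), Gsta3 (4.81, 5.86e-07), Bc1 (4.79, 3.49e-08), Trpv4 (4.60, 1.89e-05), Plxnb3 (3.73, 1.12e-05), Tuba1b (3.53, 6.53e-05), Scarna3a (3.52, 6.57e-05), the myelin gene Mag (2.10, 0.00166) and the AMPA receptor partner gene Cnih3 (0.96, 0.000391). Lower than Basal in Reactivated and higher in Late were Edn1 (−5.13, 6.51e-06) and the sulfotransferase gene Sult1a1 (−1.92, 8.48e-06).

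Bc1 and Lrrc17 kept their rise over Basal under every alternative run. The rise of Mag over Basal was lost without each of 5 single libraries, and that of Gsta3 without Basal replicate 1 or 2. With libraries scaled to the same total, Mag, Gsta3, Trpv4 and Cnih3 did not pass against Basal (adjusted p = 0.257, 0.0914, 0.0587 and 0.738). The fall of Edn1 below Basal was lost without each of 4 single libraries.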

How the results depend on the processing

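With libraries scaled to the same total, 1237 genes were higher and 5833 lower than in Basal, 3890 and 1091 than in Late, and 719 and 4285 than in Early. With the values as deposited and no scaling, an alternative chosen after seeing the data, the counts were 1138 and 1126, 877 and 869, and 343 and 1241. Against Basal, DESeq2 called 3342 and 3183, limma-voom 3613 and 3236, and a fit of only the 6 libraries 2351 and 2065. The fit of 6 libraries kept 71.4% of the main calls. In the main fit all 4 groups share 1 estimate of the spread. Libraries of the same group correlated at 0.917 to 0.955 in Reactivated, 0.954 to 0.974 in Basal, 0.979 to 0.981 in Late and 0.967 to 0.985 in Early. Leaving out 1 library gave 2177 to 3534 higher and 2021 to 3088 lower than in Basal, with the lowest counts without Basal replicate 2, 815 to 1718 higher and 1342 to 2065 lower than in Late, and 783 to 2396 higher and 915 to 2203 lower than in Early. The lowest counts against Late came without Late replicate 1 and against Early without Early replicate 2. Leaving out Late and Early libraries was chosen after seeing the data, and Basal libraries were left out only against Basal. With a replicate block, 3229 were higher and 2881 lower, and 5881 genes (95.3% of the calls) were shared. The difference in the share of Lars2 was 4.8 percentage points with Rn45s left out.

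Scaling to the same total turned 23 of 59 list medians against Basal from above to below 0. In 10 of them at least 1 of both values lay within the spread of the Reactivated libraries (SD), and the other 13 became: neurotrophins −0.228, adhesion genes −0.164, sodium and calcium channels −0.177, cAMP signalling −0.117, clock −0.148, DNA methylation −0.22, local translation −0.466, Rab GTPases −0.225, axon guidance −0.214, monoamine receptors −0.333, mitochondrial ribosomal proteins −0.329, proteasome −0.218 and translation factors −0.227. The log2 change of Rbfox3 became −0.43. The median of all genes moved by −0.483 with that scaling and those of the 59 lists by −0.43 to −0.569. The local translation median, near 0, was −0.0908 with upper quartile scaling, −0.0125 with voom, −0.0167 as deposited, and −0.0433 (without Reactivated replicate 3) to 0.0467 over the fits without 1 library. Over the same fits the neurogenesis median ran from −0.359 (without Reactivated replicate 1) to 0.622, and that of NMDA receptor genes from −0.146 to 0.0757 (without Reactivated replicate 3). The causes were not tested.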
